A study of Mus musculus with 6 samples.

Results

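Skeletal-type contractile isoform genes were examined in CMs (cardiomyocytes) that overexpressed SRF. They are the 10 genes Tnnt3, Tnni2, Tnnc2, Myl1, Myh1, Myh2, Myh4, Mybpc1, Mybpc2 and Actn3, of 23337 genes in the count table, and all 10 have a row there. They are myofilament isoforms of skeletal muscle and were selected on earlier results, their CPM (read counts scaled for library size with TMM factors) in SRF-OE against GFP. Their difference between the groups is therefore described here and not tested. All but Mybpc1 are isoforms of fast fibres. Mybpc1 encodes the slow form of myosin binding protein C, which fast fibres also contain, so the set is of skeletal type and not strictly fast.

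The libraries were RNA-seq of GFP+ CMs that FACS sorting took from hearts of wildtype mice of mixed background at day 14 (P14). Pups had been injected at day 1 with AAV9-cTNT-SRF-2A-GFP (SRF-OE) or AAV9-cTNT-GFP (GFP, the control), each at 5e8 vg (viral genomes) per g of body weight. The cTNT promoter is that of cardiac troponin T, so both groups carried virus and expressed GFP in CMs, and the dose was mosaic, reaching only some of the CMs of a heart. Of 6 labelled libraries 5 had counts, 2 of SRF-OE (replicates 2 and 3) and 3 of GFP (replicates 1 to 3). The remaining column, named for SRF-OE replicate 1, is filled with lengths of genes, and gene symbols stand under a name meant for chromosomes. The names may therefore be displaced by 1 column, which the table does not settle. If they are, the values printed here as SRF-OE replicates 2 and 3 and GFP replicate 1 belong to SRF-OE replicates 1 to 3, and those printed as GFP replicates 2 and 3 belong to GFP replicates 1 and 2. Each library is called here by the name over its column.

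Total counts per library ranged from 14137433 to 23159631. Srf itself was at 359.9 and 748.2 CPM in the SRF-OE libraries and at 67.3 and 85.1 CPM in GFP replicates 2 and 3. The library labelled GFP1 had 337.8 CPM of Srf, just under SRF-OE replicate 2. This value went against its label, and whether the label or the order of the column names is at fault was not tested. The library was kept in the group its label gives, and differences between the groups are given with all 5 libraries and without that library. The log2 fold change of Srf was 1.76 (SE 0.71, edgeR adjusted p = 0.357) with 5 libraries and 2.87 (SE 0.37, edgeR adjusted p = 0.044) without GFP1. No label says that the replicates came from separate hearts, so p-values measure the spread between these libraries.

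Each sarcomere protein studied here is one of several isoforms encoded by separate genes. Ventricular CMs use Tnnt2, Tnni3, Tnnc1, Myl3, Myh6, Mybpc3 and Actn2, while fast skeletal fibres use the genes described here in the same positions. The troponins (T, I and C) make thin filaments sensitive to calcium, the myosin heavy and light chains form the motor, myosin binding protein C ties the thick filament to the thin one, and alpha-actinin crosslinks actin at the Z-disc. SRF is a transcription factor that binds the CArG box in promoters of many contractile genes, often with cofactors, and MEF2 and the E-box binding factors of the MyoD family act on fibre genes in skeletal muscle.

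RefSeq promoter windows, 250 bases before to 50 after the gene start, were found for 7 of the 10 genes, that is for all but Tnnt3, Tnni2 and Actn3. The windows were searched on both strands for the CArG box, the MEF2 box, the E-box CANNTG, the MCAT element CATTCC and the TATA box TATAAA. The CArG box was in 1 of the 7 windows (that of Myh4) and in 1.63% of 32851 promoter windows of all genes. The MEF2 box was in 2 (Myh1 and Myh4), against 3.19% of all windows, and in both it overlapped a TATA box match. E-boxes were in 5 of the 7 windows, against 72.3% of all, MCAT elements in 4, against 14.7%, and TATA boxes in 4, against 13.6%. The 250 bases before the start are shown, for Myl1 only the 147 of them outside its exons in GENCODE vM21. They are given for Myl1, which had the most counts of the 10 genes, for Myh4, the only window with a CArG box, and for Mybpc2, the most abundant of the genes with like levels in every library. They lie at chr1:66945144-66945290 on the minus strand for Myl1, chr11:67237562-67237811 on the plus strand for Myh4 and chr7:44524670-44524919 on the minus strand for Mybpc2 (GRCm38.p6), and are written 5′ to 3′ along the gene. Capitals mark the CArG, MEF2, MCAT and TATA matches on either strand:
Myl1: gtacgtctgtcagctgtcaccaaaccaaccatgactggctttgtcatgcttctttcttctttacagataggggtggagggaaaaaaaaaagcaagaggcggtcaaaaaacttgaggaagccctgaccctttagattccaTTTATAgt
Myh4: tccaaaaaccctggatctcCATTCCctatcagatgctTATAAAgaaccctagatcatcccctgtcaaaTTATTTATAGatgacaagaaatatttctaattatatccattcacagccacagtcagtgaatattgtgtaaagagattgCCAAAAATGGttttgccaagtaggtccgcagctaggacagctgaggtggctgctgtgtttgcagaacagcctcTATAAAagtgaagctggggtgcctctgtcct
Mybpc2: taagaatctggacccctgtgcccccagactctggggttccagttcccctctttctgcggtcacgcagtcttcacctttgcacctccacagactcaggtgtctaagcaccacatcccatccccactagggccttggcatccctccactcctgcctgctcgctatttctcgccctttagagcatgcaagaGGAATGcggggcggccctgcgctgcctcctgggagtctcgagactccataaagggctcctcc

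The Myl1 window held a TATA match starting at base -95 and, beyond the bases shown, an MCAT element at -80, both on the opposite strand, with an E-box at -224. It had no match to the CArG or MEF2 box in these letters. In Myh4 the CArG box starts at -104. Outside the 10 genes, the windows of Acta1, the skeletal actin gene, and of Myl3, the ventricular light chain gene, held a CArG box at -73 and -85. These windows are short, so a match or its absence describes only the window. Myl1 has 8 annotated transcripts, of which 3 begin at the upstream end of the gene and 5 begin at least 9.8 kb downstream of it. The RefSeq start used for the window lies inside the gene as GENCODE draws it, whose upstream end is at base 66945404. The long and short forms of the fast light chain come from different starts of the gene, and a gene count does not separate them.

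**Figure D1:**
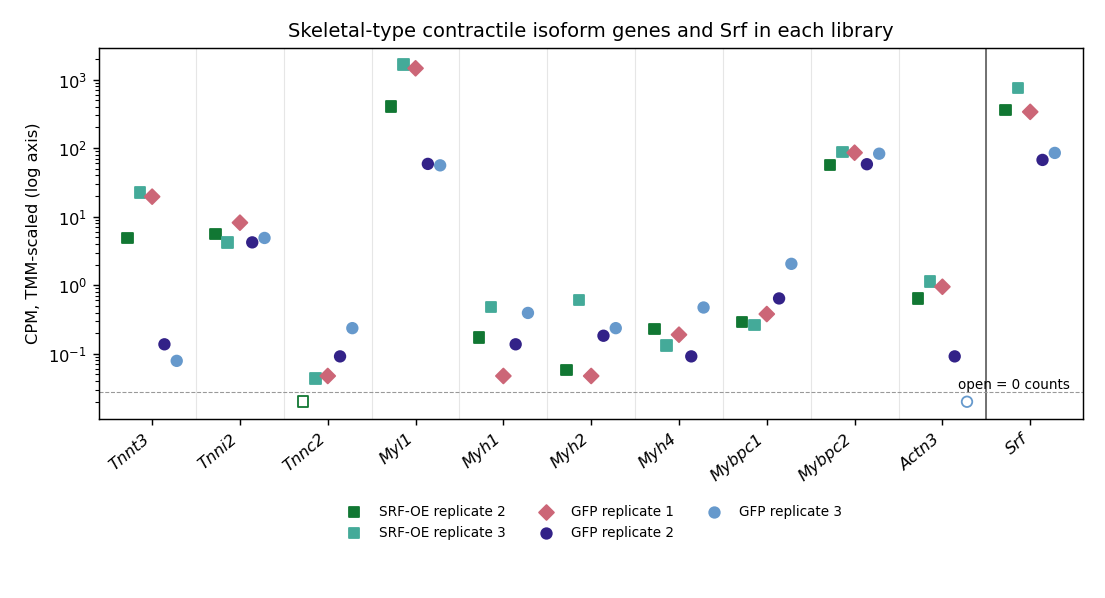
CPM on a log axis for the 10 skeletal-type isoform genes and Srf, with 1 point per library and open symbols for 0 counts. Tnnt3 and Myl1 in GFP replicate 1 lie beside the 2 SRF-OE libraries, above GFP replicates 2 and 3, while Mybpc2 and Tnni2 have all 5 libraries close together.

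Myl1, Tnnt3 and Actn3 were the members with many more reads in both SRF-OE libraries and in GFP1 than in GFP replicates 2 and 3. Mybpc2 and Tnni2 were detected in all 5 libraries at about the same level, and Tnnc2 and the 3 fast myosin heavy chain genes were at or near 0. Mybpc1, with few counts in every library, was lowest in SRF-OE, with GFP1 close above. Of the 10 genes, 6 passed the filter on low counts (Tnnt3, Tnni2, Myl1, Mybpc1, Mybpc2 and Actn3). With 5 libraries, 0 of the 10 had an adjusted p under 0.05 in edgeR, as did 0% of the 13754 genes tested in each direction. At an unadjusted p under 0.05 there were 1917 genes in all (13.9%), and DESeq2 called 11 higher and 213 lower. Without GFP1, 2 of the 10 (Myl1 and Tnnt3) were called higher, where 1.98% of 13397 genes were, and 0 were called lower, where 0.97% of genes were. At an unadjusted p under 0.05 there were then 28.3% of all genes. Since these genes were chosen with the contrast known, these counts are descriptive. In these bulk libraries fewer expressing cells and less RNA per cell cannot be told apart.

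Troponin T binds tropomyosin and anchors the troponin complex. Tnnt3, its fast skeletal gene (chr7:142498836-142516009, GRCm38, plus strand), had 84 and 517 counts in SRF-OE replicates 2 and 3, 412 in GFP1, and 3 and 1 in GFP replicates 2 and 3. As CPM these were 4.86 and 22.6 in SRF-OE, 19.6 in GFP1, and 0.14 and 0.08 in the other GFP libraries. Without GFP1 the groups do not overlap, but with it they do, since GFP1 lies between the SRF-OE libraries. SRF-OE averaged 13.7 ± 12.6 CPM (SD, n = 2), and GFP averaged 6.60 ± 11.2 CPM (SD, n = 3). Pooled counts of SRF-OE were 128.9 times those of GFP replicates 2 and 3 (95% exact interval 50.1 to 474.7, from 601 against 4 counts) and 1.996 times those of all GFP libraries (1.76 to 2.27). These intervals cover counting error only, and so do all intervals of pooled counts given here. Tnnt3 was 4.65 times higher in SRF-OE replicate 3 than in replicate 2.

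The cardiac gene Tnnt2 supplied nearly all troponin T reads throughout. Per length, Tnnt3 was 0.067% and 0.374% of the troponin T transcripts in SRF-OE replicates 2 and 3, 0.245% in GFP1, and 0.0016% and 0.0008% in GFP replicates 2 and 3. Tnnt2 held 99.1% to 99.6% in every library, so Tnnt3 remained a small fraction of troponin T at its highest level. To see whether reads of Tnnt2 could be counted on Tnnt3, 50-base windows of the Tnnt3 transcript were searched in all GENCODE vM21 transcripts, and 0 of 1018 were shared with another gene. The most alike 60 coding bases of the genes differ at 13 positions (capitals), at coding bases 181 to 240 of Tnnt3 and 283 to 342 of Tnnt2:
Tnnt3: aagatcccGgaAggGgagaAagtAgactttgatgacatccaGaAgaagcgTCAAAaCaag
Tnnt2: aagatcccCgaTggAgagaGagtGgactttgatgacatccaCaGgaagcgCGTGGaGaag

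Troponin I holds the thin filament off and troponin C is its calcium sensor. The fast troponin I gene Tnni2 (chr7:142441808-142444410, plus strand) had 97 and 96 counts in SRF-OE, 172 in GFP1 and 92 and 62 in GFP replicates 2 and 3. Its CPM was 5.61 and 4.197 in SRF-OE against 8.17, 4.22 and 4.89 in GFP, and the groups overlap with or without GFP1. Pooled SRF-OE counts were 1.08 times those of GFP replicates 2 and 3 (0.866 to 1.34) and 0.818 times those of all GFP libraries (0.681 to 0.981). Neither range reaches the ratios of Tnnt3, but the ranges leave out the spread between libraries. With 5 libraries the fitted log2 fold change was 1.04 (SE 1.66) for Tnnt3 and -0.24 (SE 0.36) for Tnni2. Without GFP1 the fits gave 6.83 (SE 1.06) and 0.11 (SE 0.29). Tnni2 lies next to Tnnt3 on chromosome 7 and did not follow its order across libraries, with GFP1 the highest and SRF-OE replicate 3 the lowest. Its share of troponin I transcripts per length was 0.129% and 0.135% in SRF-OE and 0.190%, 0.0848% and 0.0866% in GFP. The slow and fetal form Tnni1 held 2.93% and 2.57% in SRF-OE and 1.09%, 1.31% and 0.352% in GFP, so more of the troponin I that was not Tnni3 came from Tnni1 than from Tnni2 in every library. Tnnc2, the fast troponin C gene (chr2:164777161-164779967, minus strand), had 0 and 1 counts in SRF-OE and 1, 2 and 3 in GFP. Its 7 counts in all cannot be read as a difference, and 55.0% of its 50-base windows are shared with the overlapping gene Ube2c.

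**Figure D2:**
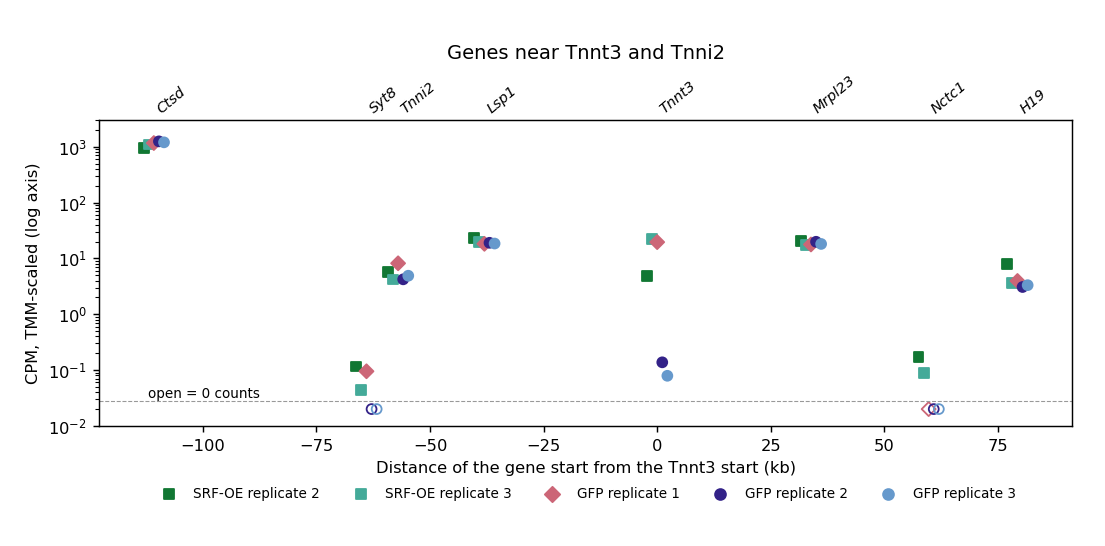
CPM (log axis) in each library for genes within 100 kb of Tnni2 and Tnnt3, by distance of the gene start from the Tnnt3 start in kb, with open symbols for 0 counts. Tnnt3 spans from 0.08 to 22.6 CPM, while its flanking genes Lsp1 and Mrpl23 stay between 17.6 and 23.5 CPM.

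Within 100 kb of Tnni2 and Tnnt3, 16 genes are annotated and 9 of them are in the count table. Lsp1, a leukocyte actin binding protein gene that lies between them, was at 23.5 and 19.6 CPM in SRF-OE and at 18.3, 19.0 and 18.5 CPM in GFP. Mrpl23, a mitochondrial ribosomal protein gene on the other side of Tnnt3, was at 20.8 and 17.6 CPM in SRF-OE and at 17.8, 19.9 and 18.2 CPM in GFP. Both flanking genes thus varied far less across libraries than Tnnt3 between them. Ctsd, a lysosomal protease gene, was at 941 and 1098 CPM in SRF-OE and 1165, 1249 and 1200 CPM in GFP. The imprinted noncoding RNA gene H19 was at 8.04 and 3.63 CPM in SRF-OE and 3.94, 3.07 and 3.32 CPM in GFP. Syt8 had at most 2 counts and Nctc1 at most 3 in any library, and Mir675 was listed at 0.

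Essential light chains sit on the myosin lever arm. Myl1 (chr1:66924295-66945404, minus strand) was the most abundant of the 10 genes, with 7028 and 37642 counts in SRF-OE, 30679 in GFP1 and 1283 and 710 in GFP replicates 2 and 3. The CPM was 406 and 1646 in SRF-OE, 1458 in GFP1, and 58.9 and 56.1 in GFP replicates 2 and 3. The last pair lay close together and well under the other 3 libraries, whereas SRF-OE replicate 2 was far from replicate 3, which was 4.05 times higher. SRF-OE averaged 1026 ± 876 CPM (SD, n = 2), and GFP averaged 524 ± 809 CPM (SD, n = 3), or 57.5 ± 1.99 CPM (SD, n = 2) without GFP1. The fitted log2 fold change was 0.97 (SE 1.42) with 5 libraries and 4.16 (SE 0.66) without GFP1. Relative to the mean of GFP replicates 2 and 3, Myl1 was 7.07-fold higher in SRF-OE replicate 2, 28.6-fold in SRF-OE replicate 3 and 25.4-fold in GFP1. Srf in the same libraries was 4.73-fold, 9.82-fold and 4.43-fold higher. Srf in GFP1 was 0.939 times its level in SRF-OE replicate 2, and Myl1 was 3.59 times higher in GFP1.

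Myl1 was the gene of the set with a share of its family that reached several percent. Per length, it was 3.77% and 20.2% of the essential light chain transcripts in SRF-OE, 13.9% in GFP1, and 0.442% and 0.426% in GFP replicates 2 and 3. Myl3, the ventricular form, held 94.4% and 76.8% in SRF-OE, 85.0% in GFP1, and 98.5% and 99.5% in GFP replicates 2 and 3. Myl4, the atrial and fetal form, held 1.84% and 2.96% in SRF-OE against 1.14%, 1.09% and 0.058% in GFP. Myl1 and Myl3 made up nearly all of the family, so the share of Myl3 had to be low where that of Myl1 was high. As CPM, Myl3 was at 8236 and 5051 in SRF-OE, 7240 in GFP1, and 10600 in each of GFP replicates 2 and 3. Of 1033 windows of 50 bases in the Myl1 transcript, 242 (23.4%) are also in a pseudogene, Mylf-ps, which has 0 rows in the count table, and 0 are in another light chain gene. Because the counting of multiply mapped reads is not stated, a part of the Myl1 reads may have been left out. The most alike 60 coding bases of Myl1 and Myl3 differ at 7 positions (capitals), at coding bases 370 to 429 of Myl1 and 418 to 477 of Myl3:
Myl1: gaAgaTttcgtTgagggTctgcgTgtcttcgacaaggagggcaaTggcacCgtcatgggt
Myl3: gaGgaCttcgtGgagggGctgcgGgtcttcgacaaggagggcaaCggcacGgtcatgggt

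**Figure D3:**
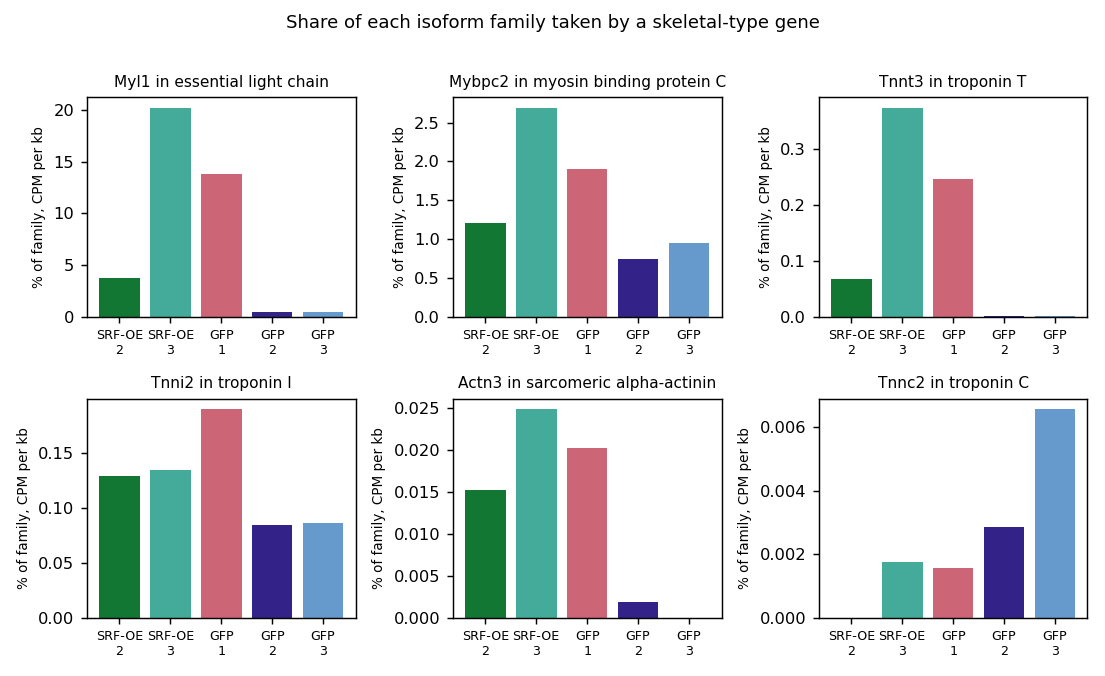
Bars give the share of Myl1, Mybpc2, Tnnt3, Tnni2, Actn3 and Tnnc2 in each library (percent of the summed CPM per kb of the protein family). Each panel has a linear axis of its own. Myl1 reaches 20.2% of essential light chains in SRF-OE replicate 3, while Tnnt3, Tnni2 and Actn3 stay under 1% in all 5 libraries.

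Myosin heavy chain is the motor itself. The 3 adult fast genes lie in a cluster on chromosome 11, Myh2 (chr11:67171027-67197517), Myh1 (chr11:67200052-67224575) and Myh4 (chr11:67238029-67260446), all on the plus strand, and encode the 2A, 2X and 2B myosins of fast fibres. Myh1 had 3 and 11 counts in SRF-OE and 1, 3 and 5 in GFP. Myh2 had 1 and 14 counts in SRF-OE and 1, 4 and 3 in GFP, and Myh4 had 4 and 3 in SRF-OE and 4, 2 and 6 in GFP. All of these overlap between the groups, and the ratio of pooled SRF-OE counts to GFP replicates 2 and 3 had intervals that include 1 for each, such as 0.706 to 5.33 for Myh2. Against all GFP libraries the interval of Myh2 was 1.03 to 7.06 (ratio 2.59), and those of Myh1 and Myh4 included 1. The summed share of the 3 genes among sarcomeric heavy chains was at most 0.0028% in any library, against 99.1% to 99.6% for cardiac Myh6. Of the neighbouring genes, Myh3 (embryonic) and Myh13 (extraocular) had at most 9 and 8 counts in any library, and Myh8, the perinatal form, had more, with 29 and 18 counts in SRF-OE and 15, 9 and 2 in GFP. Between 19.2% and 32.1% of the 50-base windows of the 3 fast genes are shared with other genes, mostly within the cluster, so their few reads cannot be assigned to a member with certainty. The fast heavy chains were thus at a few counts also in the libraries where Myl1 was high.

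Myosin binding protein C lies in the C-zone of the thick filament. Mybpc2, the fast form (chr7:44501699-44524656, minus strand), had 979 and 2005 counts in SRF-OE and 1803, 1269 and 1050 in GFP. The CPM was 56.6 and 87.7 in SRF-OE and 85.7, 58.2 and 82.9 in GFP, so the groups overlap. SRF-OE averaged 72.1 ± 22.0 CPM (SD, n = 2), and GFP averaged 75.6 ± 15.1 CPM (SD, n = 3). In GFP replicates 2 and 3 Mybpc2 was close to or above Myl1 in CPM, but per length Myl1 was the higher of the pair, at 53.0 and 50.5 against 16.1 and 22.9 CPM per kb. Its share of the family was 1.21% and 2.69% in SRF-OE and 1.91%, 0.746% and 0.946% in GFP, the rest being nearly all Mybpc3. Mybpc3 itself was at 5312 and 3629 CPM in SRF-OE and 5044, 8875 and 9933 CPM in GFP, and it is the denominator of that share. Mybpc1, the slow form (chr10:88518279-88605152, minus strand), had 5 and 6 counts in SRF-OE and 8, 14 and 26 in GFP. The CPM of Mybpc1 was 0.289 and 0.262 in SRF-OE, 0.380 in GFP1, and 0.642 and 2.05 in GFP replicates 2 and 3. GFP1 thus lay close to SRF-OE, and GFP replicate 3 was far above the rest. With 5 libraries, Mybpc1 was lower in both SRF-OE libraries than in any GFP library as CPM, where 17.3% of 13754 genes were. Tnnc2 was too, but it did not pass the filter and is not among those genes. It had 1 count in both SRF-OE replicate 3 and GFP1, so only library size separates them. Higher without overlap were 0 of the 10, where 16.1% of genes were. The pooled ratio of Mybpc1 was 0.236 (0.109 to 0.469) against GFP replicates 2 and 3 and 0.317 (0.148 to 0.618) against all GFP libraries.

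Alpha-actinin 3 is restricted to fast fibres, where it joins Actn2 at the Z-disc. Actn3 (chr19:4861216-4877909, minus strand) had 11 and 26 counts in SRF-OE, 20 in GFP1, and 2 and 0 in GFP replicates 2 and 3. Its order across libraries was that of Myl1 and Tnnt3, with SRF-OE replicate 3 and GFP1 highest. The pooled ratio was 15.9 (4.10 to 135.9) against GFP replicates 2 and 3, from 37 against 2 counts, and 2.32 (1.34 to 4.14) against all GFP libraries. At its highest Actn3 was 0.0248% of alpha-actinin transcripts per length, so it was far under the share that Myl1 reached. Without GFP1, Tnnt3, Myl1 and Actn3 lay above GFP in both SRF-OE libraries, where 30.8% of 13397 genes did, and Mybpc1 lay below, where 30.2% did. Tnnc2 also lay below, but it is not among the 13397 genes.

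**Figure D4:**
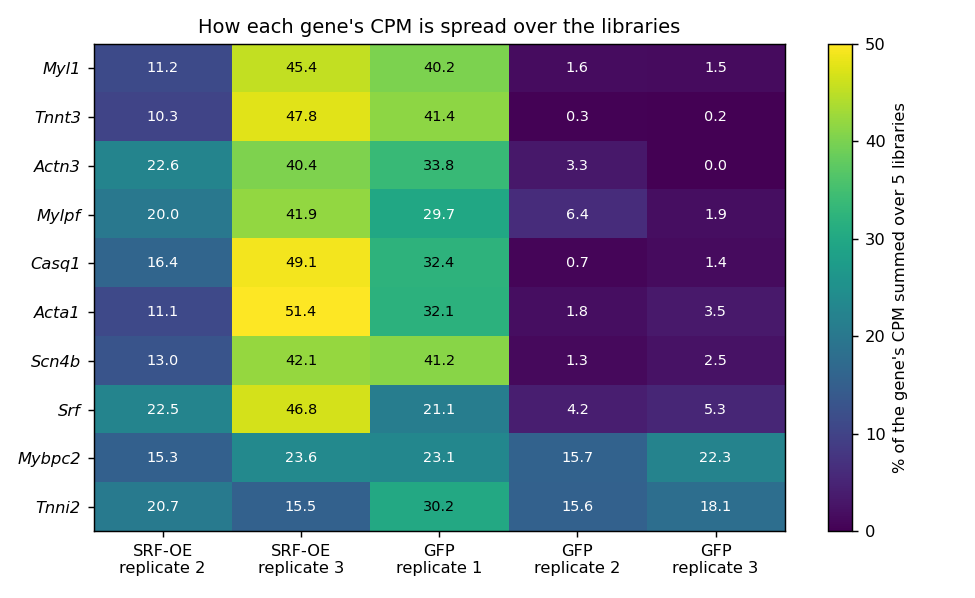
Heat map of the percent of each gene's CPM, summed over the 5 libraries, that fell in each library (numbers in the cells). Myl1, Tnnt3, Actn3, Mylpf, Casq1, Acta1, Scn4b and Srf put most of their CPM in SRF-OE replicate 3 and GFP replicate 1. Mybpc2 and Tnni2 spread it over all libraries.

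To see which genes were spread over the libraries like Myl1, each gene's CPM was turned into shares over the 5 libraries, and its total variation distance from Myl1 was taken (0 for identical shares, 1 for none in common). Among 9970 genes with a mean of at least 5 CPM, the nearest was Tnnt3, at 0.036, followed by Scn4b (0.037), Star (0.059), Irf5 (0.064) and Cnksr1 (0.068), against a median of 0.458. Myl1 had 45.4% of its CPM in SRF-OE replicate 3, 40.2% in GFP1 and 11.2% in SRF-OE replicate 2, and Tnnt3 had 47.8%, 41.4% and 10.3%. Scn4b encodes a sodium channel beta subunit, Star a cholesterol transfer protein of steroid synthesis, Irf5 an interferon regulatory factor and Cnksr1 a scaffold of Ras signalling, so these 4 are not sarcomere genes. Srf, with 46.8% in SRF-OE replicate 3, 21.1% in GFP1 and 22.5% in SRF-OE replicate 2, ranked 71 (0.191). Mybpc2 and Tnni2 ranked 1126 and 1452. Myl1 and Tnnt3 were selected on their CPM in these same libraries, so the likeness of the pair is a description and was not tested. With 5 libraries no correlation was computed, and Tnnt3 ranked 14 without GFP1 and 4 without SRF-OE replicate 3.

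Further genes of skeletal fibres were compared, from a list of 24 of which 16 could be tested. With 5 libraries 0 of 16 were called, with 5 at an unadjusted edgeR p under 0.05, where 13.9% of all genes were. The median log2 fold change was 0.093, against 0.030 over all genes. Without GFP1, 2 of 16 were called, both higher, where 1.98% of all genes were. The median was then 0.194 against 0.035. Casq1, the calcium-binding protein of the fast sarcoplasmic reticulum, was at 1072 and 3217 CPM in SRF-OE, 2121 in GFP1 and 49.1 and 92.0 in the other GFP libraries, with a log2 fold change of 1.51 (SE 1.46, adjusted p = 0.634) with 5 libraries and 4.94 (SE 0.64, adjusted p = 0.0454) without GFP1. Neb, the ruler protein of the skeletal thin filament, was at 27.3 and 48.5 CPM in SRF-OE, 24.4 in GFP1 and 7.66 and 9.71 in the others (1.44, SE 0.51, adjusted p = 0.353 with 5 libraries, and 2.14, SE 0.31, adjusted p = 0.0473 without GFP1). Both genes were thus high in the same 3 libraries as Myl1. Mylpf, the fast regulatory light chain that partners Myl1 on the same myosin, was at 3.30 and 6.91 CPM in SRF-OE, 4.90 in GFP1 and 1.06 and 0.316 in the others (1.25, SE 0.91, adjusted p = 0.527 with 5 libraries, and 2.80, SE 0.63, adjusted p = 0.0628 without GFP1). Against Myl1 it was low in every library.

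The most abundant genes of that list beside Casq1, the glycolytic genes Eno3 and Pgam2, were at 2556 and 3227 CPM against 2849 to 3134 CPM, and at 1065 and 1480 CPM against 1025 to 1530 CPM, for SRF-OE against GFP. Trim54, Myot and Mylk4 had the lowest p with 5 libraries, and their values in SRF-OE were below those in GFP. Trim54, a microtubule-associated ubiquitin ligase, was at 49.0 and 70.0 CPM in SRF-OE and 89.1, 97.1 and 118.1 CPM in GFP (log2 fold change -0.77, SE 0.20, adjusted p = 0.353, and -0.85, SE 0.20, adjusted p = 0.0695 without GFP1). Myot and Mylk4, a Z-disc protein and a myosin light chain kinase, had -0.78 (SE 0.24) and -0.59 (SE 0.19), each with an adjusted p of 0.353. Without GFP1 they had -0.88 (SE 0.24, adjusted p = 0.0868) and -0.68 (SE 0.19, adjusted p = 0.0876).

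Isoforms of slow muscle and the fetal heart were listed with other skeletal and developmental isoforms, among them Acta1, Myh3, Myh8, Myh13 and Mybph. Of these 12 genes 9 could be tested, Acta1 and Myh8 included. With 5 libraries 0 of 9 were called, with 1 at an unadjusted edgeR p under 0.05 (Tnni1), where 13.9% of all genes were. Of the 9, 7 had a positive log2 fold change, against 7334 of 13754 genes, and the median was 1.24 against 0.030. Without GFP1, 1 of 9 was called, as higher, where 1.98% of all genes were. The median was then 1.29 against 0.035. The called gene, Tpm3 (slow tropomyosin), was at 31.1 and 23.2 CPM in SRF-OE, 27.4 in GFP1 and 12.6 and 12 in the others (0.64, SE 0.38, adjusted p = 0.453 with 5 libraries, and 1.14, SE 0.20, adjusted p = 0.0499 without GFP1), and 62.4% of its 50-base windows are shared with Tpm3-rs7 and pseudogenes. Acta1, skeletal alpha-actin, was at 2673 and 12360 CPM in SRF-OE, 7730 in GFP1 and 442 and 842 in the others (1.32, SE 1.22, adjusted p = 0.613 with 5 libraries, and 3.56, SE 0.77, adjusted p = 0.0607 without GFP1), and ranked 10 in likeness to Myl1. Tnni1 was at 213 and 134 CPM in SRF-OE and 78.0, 109 and 33.2 CPM in GFP (1.24, SE 0.46, adjusted p = 0.357 with 5 libraries, and 1.29, SE 0.53, adjusted p = 0.182 without GFP1). Myl7 and Myl4, both atrial light chains, differed mainly in GFP replicate 3, at 1.18 and 6.08 CPM, where the other 4 libraries had at least 124.7 and 95.1 CPM. Myh8, with few counts, had a log2 fold change of 1.43 (SE 0.66, adjusted p = 0.379) with 5 libraries and 1.97 (SE 0.70, adjusted p = 0.136) without GFP1.

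The cardiac counterparts were a list of 11, of which all could be tested. With 5 libraries 0 of 11 were called by edgeR and 2 by DESeq2. At an unadjusted edgeR p under 0.05 there were also 0, where 13.9% of all genes were. Without GFP1 again 0 were called, with 2 at an unadjusted edgeR p under 0.05, where 28.3% of all genes were. In both fits 10 of 11 had a negative log2 fold change, with a median of -0.42 and then -0.53. Over all genes 6420 of 13754 and then 6270 of 13397 were negative, with medians of 0.030 and 0.035. Myh6, alpha-myosin heavy chain, was at 40540 and 44090 CPM in SRF-OE and at 43610, 56920 and 68850 CPM in GFP. Actc1, cardiac alpha-actin, was at 20080 and 14730 CPM against 20700, 29240 and 32190 CPM, and Tpm1, the cardiac tropomyosin, at 10820 and 8535 CPM against 11540, 13430 and 16550 CPM. Mybpc3 had the lowest p, with -0.83 (SE 0.37, adjusted p = 0.371) with 5 libraries and -1.07 (SE 0.26, adjusted p = 0.0712) without GFP1. Myh7 was the exception among the 11, at 0.28 and 0.29. The counts of positive and negative values in the 3 lists above were the same with DESeq2's size factors.

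**Figure D5:**
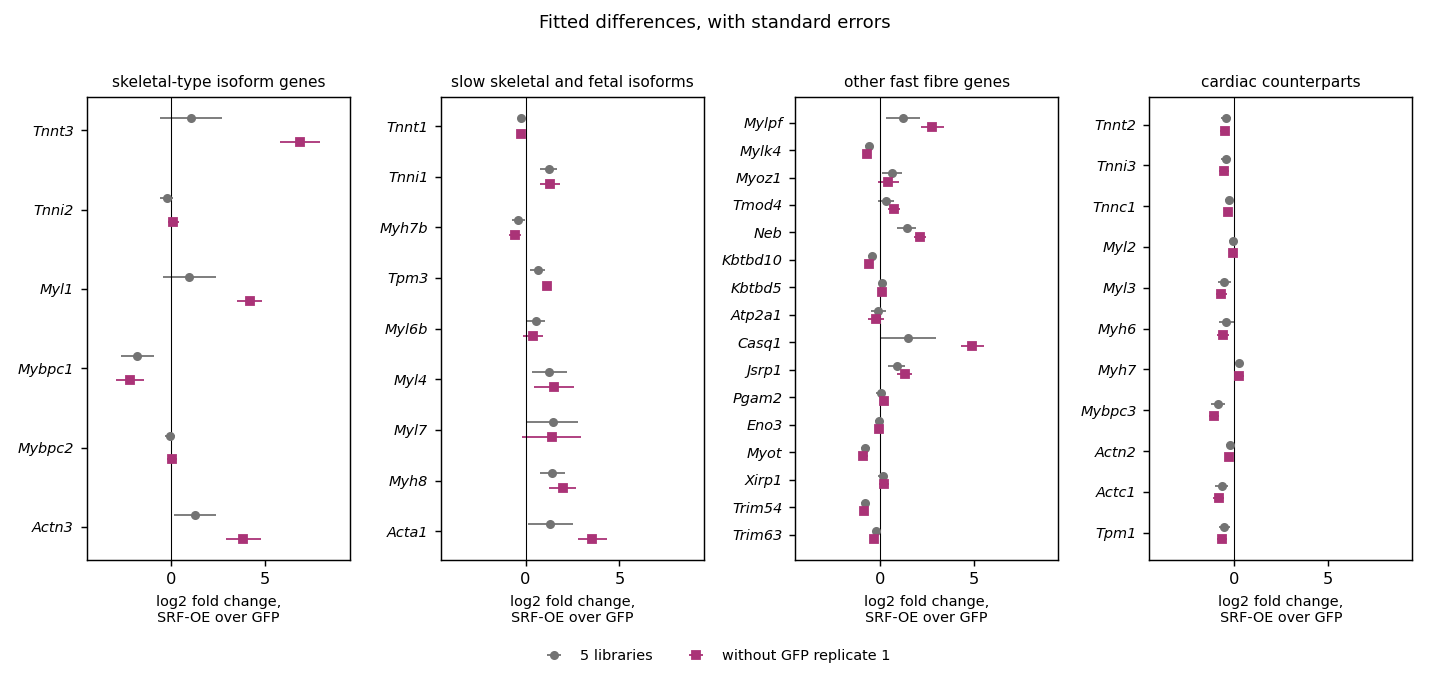
Fitted log2 fold change of SRF-OE over GFP (horizontal axis) with its standard error as bars, for genes that could be tested in the 4 groups of genes, with 5 libraries (circles) and without GFP replicate 1 (squares). Tnnt3, Myl1, Actn3, Casq1 and Acta1 shift most when GFP replicate 1 is left out, and the fitted size for Tnnt3 depends on a prior count because GFP replicates 2 and 3 have 3 and 1 counts.

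Regulatory genes of skeletal muscle, mostly of transcription factors and with a fusion protein gene among them, were looked for. Of 11 such genes 3 could be tested, and 0 were called in either fit. At an unadjusted edgeR p under 0.05 there were 0 of the 3 with 5 libraries and 1 without GFP1 (Eya1, -1.44, SE 0.56). Over all genes 13.9% and then 28.3% were. Six4, the most abundant, was at 5.67 and 5.82 CPM in SRF-OE and 6.80, 7.71 and 6.16 CPM in GFP. Myod1, Myog, Myf5, Myf6 and Pax7 had at most 2 counts in any library. Of the 10 marker genes of skeletal muscle cells, Casq1 and Mylpf alone reached a level that could be tested, and the other 8 summed to 11 and 8 counts in SRF-OE and 9, 7 and 6 in GFP.

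The sorted cells carried the markers of CMs, whose 10 genes summed to 103200 and 92530 CPM in SRF-OE and 108700, 144100 and 163300 CPM in GFP, with 9 of 10 negative with 5 libraries. Over all genes 7334 of 13754 were positive and 6420 negative. The 10 endothelial markers summed to 971 and 379 CPM in SRF-OE and 745, 408 and 395 CPM in GFP. All 10 had a positive log2 fold change with 5 libraries. The 10 fibroblast markers summed to 933 and 465 CPM in SRF-OE and 504, 396 and 338 CPM in GFP, also with 10 of 10 positive. Both sums were highest in SRF-OE replicate 2 and next in GFP1. The 8 smooth muscle markers summed to 1028 and 810 CPM in SRF-OE and 868, 1393 and 1973 CPM in GFP, with 6 of 8 positive. Acta2, 1 of the 2 negative genes, was the most abundant of the 8 in every library. It was at 530 and 372 CPM in SRF-OE and 463, 1018 and 1463 CPM in GFP, so the sum does not follow most of the list. The 8 leukocyte markers summed to 37.1 and 17.1 CPM in SRF-OE and 24.0, 13.7 and 11.5 CPM in GFP, with 5 of 7 tested positive. With 5 libraries 0 of these markers were called, as were 0 of all 13754 genes. At an unadjusted edgeR p under 0.05 there were 1 of 10 CM, 0 of 10 endothelial and 5 of 10 fibroblast markers. So were 4 of 8 smooth muscle and 1 of 7 leukocyte markers, where 13.9% of all genes were. Without GFP1 these were 5 of 10, 1 of 10, 9 of 10, 5 of 8 and 2 of 6, against 28.3%. Called without GFP1 were 0 CM, 0 endothelial, 1 fibroblast, 3 smooth muscle and 1 leukocyte marker. Of all genes 1.98% were then called higher and 0.97% lower. The 3 smooth muscle calls were 2 higher and 1 lower in SRF-OE. No endothelial, fibroblast or smooth muscle marker was at 0 in any library, and of the leukocyte markers Cd52 was. The part of these cells in the values of the 10 genes was not tested.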

How the data were processed

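RNA-seq was analysed for 6 labelled libraries of sorted P14 CMs, 3 SRF-OE and 3 GFP. The authors sequenced SMART-seq v4 cDNA libraries as single-end reads, and per the labels aligned them to mm10 with STAR 2.5.3a and counted reads per gene with featureCounts (Subread 1.5.2). The submitters' processing notes also name CASAVA 1.8. The deposited table holds raw counts, not normalized. Its column named for SRF-OE replicate 1 is filled with lengths in bp. It has 0 zeros, and 52.3% of 20929 genes lie within 5% of their annotated exon length. It served only as gene length, which left 5 libraries. Columns were assigned by name, although the names may be displaced by 1 column, and 0 columns of sample values were left unused.

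Counts were tested in edgeR 4.0.16 (R 4.3.3) with filterByExpr, TMM and the quasi-likelihood test, adjusted over all genes by the Benjamini-Hochberg method at 0.05. Each SE was obtained from the fold change and the quasi-likelihood F statistic. CPM used TMM factors of the 5 libraries. Alternatives were DESeq2 1.42.0, its size factors, the replicate block, leaving out each library, no filter and a minimum of 10 counts per library. The paper's methods use DESeq2. The fits were tested on simulated data.

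The members and lists were chosen with earlier results of these data known. Genes named were Srf, the 10 members, the 3 highest in CPM, the called and the 3 lowest in p of each list, the 5 nearest in profile and the genes near the members. Ranks of other genes were named after their values were seen. Strand and multiply mapped read settings of the counting are not given in the sources used here, so overlapping and near-identical genes are uncertain.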

Additional observations from a re-analysis of the deposited data

How the results depend on the processing

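With 5 libraries 0 genes were called higher and 0 lower by edgeR. DESeq2 called 11 and 213, and the replicate block 582 and 432. Leaving out each library gave 0 to 265 higher and 0 to 130 lower, the highest without GFP1. Without GFP1, the replicate block gave 547 and 392, DESeq2 853 and 833, DESeq2's size factors 330 and 206, and no filter 1660 and 1303. For the cardiac counterparts (0 called), DESeq2 called 2 (Actc1 and Mybpc3), and without GFP1 DESeq2 called 5 and no filter 7. For the list of slow, fetal and other isoforms (0 called), the replicate block called 3 (Acta1, Tnni1 and Tpm3), and leaving out each library 0 to 1. Without GFP1 the replicate block called 3 of that list, DESeq2 2, size factors 1 and no filter 7. For the other fast fibre genes (0 called), the replicate block called 3 (Casq1 and Neb higher, Trim54 lower), leaving out each library 0 to 2, and without GFP1 the replicate block called 3, DESeq2 5, size factors 2 and no filter 8. Of the 10 members, 0 were called with 5 libraries and 2 with the replicate block (Tnnt3 at 6.47 and Myl1 at 3.83 on the log2 scale). In the replicate block GFP1 was the only library with its number, so it did not enter the fitted difference between the groups. With the block and without GFP1, Tnnt3 was at 6.46 and Myl1 at 3.83. Also without GFP1, DESeq2 and its size factors each called Myl1 and Tnnt3. No filter then called 4 members, Actn3, Myl1 and Tnnt3 higher and Mybpc1 lower. With 5 libraries DESeq2 gave no adjusted p for Tnnt3, Tnni2, Mybpc1, Mybpc2 and Actn3, so it could not call them. Myogenic regulators had 0 calls under each alternative run. The cause of the other changes was not tested.

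The replicate numbers were shared by only 2 pairs. Their deviations from the group means correlated at 0.396 and -0.074 with 5 libraries and at 0.217 without GFP1. Without GFP1 each group has 2 libraries, so both pairs must give the same value. These values do not settle whether the libraries were paired. The fitted log2 fold changes turned direction as follows. Leaving out each library gave Tnnt3 -0.48 to 6.83 and Myl1 -0.38 to 4.16, with the lowest values without SRF-OE replicate 3, and that fit rests on 1 SRF-OE library, assumed to vary like the GFP libraries. Tnni2, at -0.24 and at -0.46 to 0.11 when each library was left out, was at 0.10 with the replicate block, 0.11 without GFP1, and without GFP1 at 0.11 with the replicate block, 0.10 with DESeq2, 0.10 with size factors and 0.10 with no filter. Mybpc2, at -0.07 and at -0.43 to 0.21 when each library was left out, was at 0.020 with the replicate block, 0.21 without SRF-OE replicate 2, 0.041 without GFP1, 0.0046 without GFP replicate 3, and without GFP1 at 0.026 with the replicate block, 0.041 with DESeq2, 0.035 with size factors and 0.037 with no filter. With shares of raw counts, Tnni2 moved from 0.132% to 0.106% of troponin I in SRF-OE. The rank of Tnnt3 in likeness to Myl1 was 1 to 14 when each library was left out, and 1 of the 5 nearest genes was kept without GFP1.

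Levels of Tnnc2, Myh1, Myh2, Myh4, Mybpc1 and Actn3 rest on few counts. For Tnnc2, Myh1 and Myh4 a difference within the counting intervals was not detectable at this depth.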
